A study of Mus musculus with 6 samples.

Results

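Chaperones fold proteins, hold unfolded ones and pass failed ones on for destruction, and the unfolded protein response (UPR) adjusts the folding machinery of the endoplasmic reticulum (ER) to its load. The chaperone and UPR genes of mouse inguinal fat were taken by gene symbol, as the heat shock proteins, heat shock factors, J-domain proteins, CCT chaperonin subunits, protein disulfide isomerases, lectin chaperones, UPR sensors and transcription factors, ER-associated degradation genes, BAG cochaperones and Sec61 subunits with a single symbol in the probe annotation. The rule found 104 genes of 13840 genes with a single symbol, and 84 of the 104 had a probe with a value on all 6 arrays, against 8596 genes in all. Inguinal fat is a subcutaneous depot, and the mice were genetically alike C57BL/6J males, housed singly, which at an age of 8 weeks were put on the high saturated fat diet D12331 for 4 weeks. The 8 mice that put on much weight, the high gainers, gave 1 RNA pool, and 8 low gainers, which put on little, gave the other. Each pool was hybridized to 3 one-color arrays, so n counts arrays, and the p-values measure the technical spread between arrays of 2 pools and not the variation between mice.

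Sensors in the ER membrane start the UPR. Ern1 (IRE1) splices the mRNA of the transcription factor Xbp1, Eif2ak3 (PERK) slows translation and thereby raises Atf4 and its target Ddit3 (CHOP), and Atf6 is cut to release a transcription factor. Their targets include the ER chaperone Hspa5 (BiP), the ER HSP90 Hsp90b1, the disulfide isomerases and the degradation genes Herpud1, Edem1 and Derl3. Heat shock factors control the chaperones of the cytosol and mitochondria through another DNA element. Adipocytes secrete hormones such as leptin and adiponectin and so use the ER, and obesity in mice is known to go with ER stress in fat.

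The promoters were searched for exact matches to the UPR's own element, and variants of it or sites further from the start were not sought. RefSeq promoters of GRCm38.p6, each 250 bases before to 50 bases after an annotated start, were given for 91 of the 104 genes and for 27025 genes in all. The ER stress element, CCAAT and CCACG separated by 9 bases on either strand, was found in 9 of the 91 promoters (9.89%) and in 37 of all genes (0.137%). The 9 genes code for ER chaperones (Hspa5, Hsp90b1, Calr, Canx, Creld2, Dnajc3), the isomerase Pdia6 and the degradation factors Syvn1 and Derl3. Their elements are printed 5′ to 3′ on the strand of the gene because the results return to these 9 genes as a set. Capitals mark the element, which reads CGTGG to ATTGG where it lies on the opposite strand.
Hspa5, chr2:34772005-34772063, plus strand: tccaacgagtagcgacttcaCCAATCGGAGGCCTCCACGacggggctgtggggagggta
Hsp90b1, chr10:86705618-86705676, minus strand: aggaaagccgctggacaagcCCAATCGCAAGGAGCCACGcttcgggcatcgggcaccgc
Hsp90b1, chr10:86705513-86705571, minus strand: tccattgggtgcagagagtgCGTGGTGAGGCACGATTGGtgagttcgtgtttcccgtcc
Calr, chr8:84847055-84847113, minus strand: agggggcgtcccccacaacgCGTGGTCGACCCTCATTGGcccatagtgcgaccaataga
Canx, chr11:50325780-50325838, minus strand: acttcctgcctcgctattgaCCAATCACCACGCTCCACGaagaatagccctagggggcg
Creld2, chr15:88819500-88819558, plus strand: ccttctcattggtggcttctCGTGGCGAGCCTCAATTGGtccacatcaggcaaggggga
Dnajc3, chr14:118937807-118937865, plus strand: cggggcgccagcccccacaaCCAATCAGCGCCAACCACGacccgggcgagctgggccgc
Pdia6, chr12:17266471-17266529, plus strand: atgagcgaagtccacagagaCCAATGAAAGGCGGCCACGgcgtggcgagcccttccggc
Syvn1, chr19:6046512-6046570, plus strand: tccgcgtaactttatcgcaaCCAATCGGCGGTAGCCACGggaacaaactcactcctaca
Derl3, chr10:75893222-75893280, plus strand: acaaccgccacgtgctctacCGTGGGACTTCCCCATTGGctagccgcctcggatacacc

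The heat shock element was searched as 3 alternating GAA and TTC triplets separated by 2 bases, on both strands. It was found in 4 of the 91 promoters (4.40%), those of Hspd1, Hspe1, Hsph1 and Dnajb6, and in 0.662% of all genes. Hspd1 and Hspe1, the barrel and the lid of the mitochondrial chaperonin, lie head to head and share a stretch with 2 overlapping matches, shown because both genes were measured. Capitals mark the first match, and the second begins 5 bases further on.
Hspe1, chr1:55088039-55088091, plus strand: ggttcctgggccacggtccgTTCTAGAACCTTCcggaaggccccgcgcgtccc
The UPR element, TGACG followed at once by TGG and searched on both strands, was found in 0 of the 91 promoters and in 0.714% of all genes. The amino acid response element, TGATG, any base and AA on either strand, was found in 2 of 91 (2.20%), Herpud1 and Hspa14, and in 4.51% of all genes.

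The question was whether the folding machinery differed between the pools. At a Benjamini-Hochberg adjusted p under 0.01 by limma and a fold change of at least 1.5, 0 of the 84 genes were higher in high gainers, against a background of 2.50% of the 15821 probes tested, and 0 were lower, against 3.99%. The methods' ANOVA, at an unadjusted p under 0.01 and the same fold, also gave 0 of 84, against 7.29% of all probes. At an adjusted p under 0.05 and any fold, 6 genes were higher in high gainers (7.14% of 84, background 8.87%), namely Hspb7, Dnajb13, Hspa2, Hsf3, Bag3 and Hspb8, and 2 were lower (2.38%, background 7.72%), Sdf2l1 and Hspe1. At an unadjusted p under 0.05, 11 were higher (13.1%, background 17.4%) and 9 lower (10.7%, background 13.6%). All 3 high-gainer arrays lay above all 3 low-gainer arrays for 15 genes (17.9%, background 20.3%) and below them for 11 (13.1%, background 16.3%). Each of these shares was below that of all probes. The thresholds take overlapping genes, so the shares are not separate observations, and their difference from the background was not tested. The genes stand by their brightest probes, 61 of the 84 above the median signal, while the background holds all probes.

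The ratios were small. Of the 84 genes, 48 had a log2 ratio of high over low gainers above 0 and 36 below 0, 65 (77.4%) were within 1.2-fold and 1, Hspb7, was beyond 1.5-fold. Over all probes 62.1% were within 1.2-fold. The median size of the log2 ratio without its sign was 0.12 for the 84 genes and 0.20 for all probes. Among probes above the median signal, where the arrays are less noisy, it was 0.10 for 61 of the genes and 0.16 for 7910 probes. For 67 of the 84 genes the 95% interval of the ratio lay within 1.5-fold in either direction. That interval covers the spread between arrays only, and the same share was not taken over all probes. The median log2 ratio was 0.03 for the 84 genes and for all probes alike, and -0.11 for the 84 genes when each array was centered on the median deviation of 13 adipocyte markers from their own means, which shifts every log2 ratio by -0.14.

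**Figure D1:**
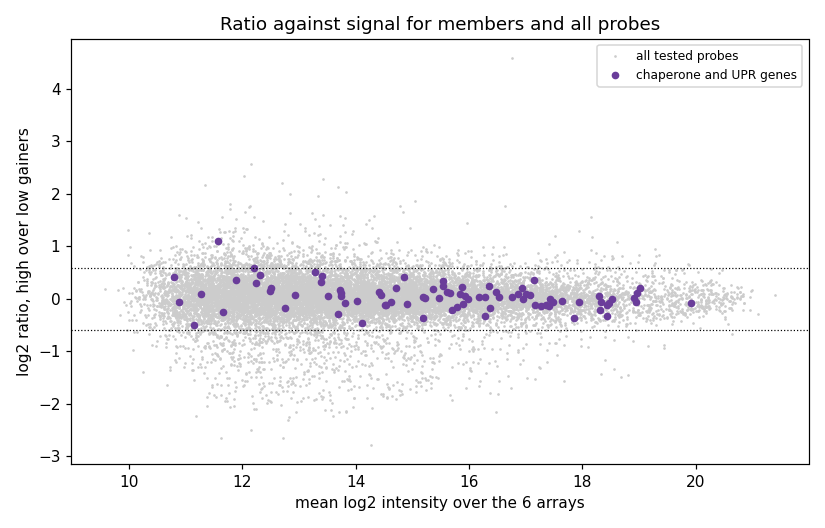
Each point is a probe, with its mean log2 intensity over the 6 arrays on the horizontal axis and its log2 ratio of high over low gainers on the vertical axis; purple points are the 84 chaperone and UPR genes, gray points are all 15821 probes and dotted lines mark 1.5-fold. The purple points lie between -0.49 (Dnajb9) and 1.10 (Hspb7), with Hspb7 beyond the dotted lines.

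By role, the medians lay on both sides of 0. The median log2 ratio was 0.35 for 3 small heat shock proteins, 0.20 for 2 heat shock factors, 0.19 for 6 HSP70 and HSP110 genes of the cytosol and nucleus and 0.10 for 16 J-domain proteins of the cytosol, nucleus and vesicles. It was 0.06 for 4 disulfide isomerases, 0.04 for 15 ER chaperones and 0.01 for 8 cochaperones. It was -0.01 for 4 Sec61 subunits and -0.05 for 4 UPR sensors and transcription factors. The median was -0.07 for 6 mitochondrial chaperones, -0.08 for 8 degradation genes and -0.003 for 8 CCT subunits. With the adipocyte centering, the medians of the J-domain proteins (-0.05), the disulfide isomerases (-0.09), the ER chaperones (-0.10) and the cochaperones (-0.14) turned negative.

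**Figure D2:**
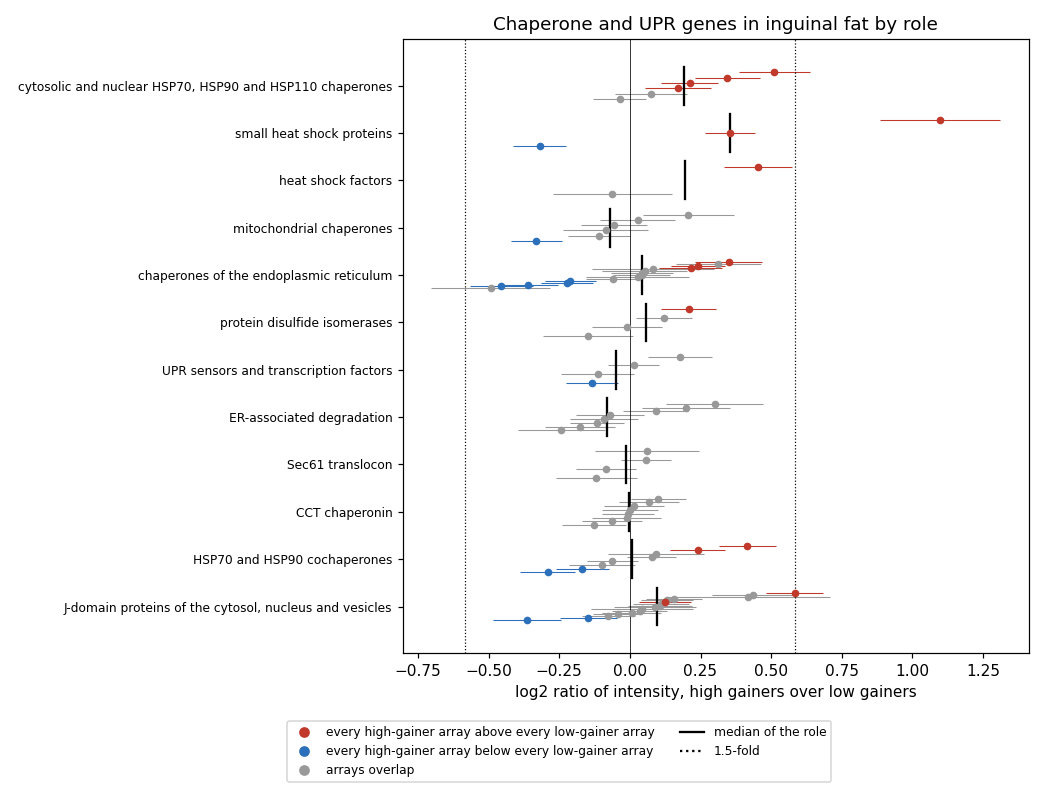
The log2 ratio of intensity, high gainers over low gainers, is on the horizontal axis for each of the 84 genes, grouped by role down the page, with bars of 1 SE of the limma fit; color shows whether the 3 arrays of each pool were fully apart, black strokes are role medians and dotted lines mark 1.5-fold. The CCT subunits sit between -0.13 and 0.10, while the small heat shock proteins reach 1.10 and -0.32.

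Small heat shock proteins bind unfolding proteins without using ATP, and several are abundant in muscle. Hspb7, a member known from heart and skeletal muscle, had intensities of 4288, 4646 and 4409 in high gainers and of 1855, 2967 and 1626 in low gainers. The 2 pools did not overlap, and low-gainer array 2 stood above the other two. The log2 ratio was 1.10 (SE 0.21, 2.14-fold, adjusted p = 0.0133), and without that array it was 1.36 (adjusted p = 0.00184), past the threshold. Without any other single array the adjusted p by limma rose to between 0.0367 and 0.0477. By the methods' ANOVA the adjusted p was 0.0887. The probe is dim, a word used here for a mean signal in the lowest 33.3% of the tested probes. Hspb8, which works with the cochaperone Bag3 to send damaged proteins to autophagy, had 165626, 158279 and 171711 in high gainers and 130869, 126401 and 130137 in low gainers, a log2 ratio of 0.35 (SE 0.09, adjusted p = 0.0338). Bag3 itself had 33144, 36454 and 33554 in high gainers and 25871, 27795 and 23737 in low gainers, a log2 ratio of 0.42 (SE 0.10, adjusted p = 0.0320). The partners thus lay on the same side, both fully apart between pools and both within 1.5-fold. Hspb6, a small heat shock protein of muscle that is phosphorylated by protein kinase A, lay on the other side, with 69888, 76773 and 68897 in high gainers and 92985, 87500 and 88361 in low gainers (log2 ratio -0.32, SE 0.09, adjusted p = 0.0569). Hspb2 had values on 3 high-gainer arrays (3112, 2157 and 2871) and on 2 low-gainer arrays (1377 and 1566) and was not tested, and Hspb3 was blank on all arrays.

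Markers of muscle differed between the pools too. Of 12 tested skeletal muscle markers, 9 were lower in high gainers at the main threshold, and their summed intensity was 1716930 to 1792650 in high gainers and 2682130 to 3068400 in low gainers, while Myh7, Tnnt1 and Ryr1 lacked values on some arrays. Of 10 smooth muscle and pericyte markers, a list added after the data were seen, 9 had a ratio above 0 and none passed the threshold, and their sum was 419534 to 443076 in high gainers and 306766 to 322977 in low gainers. The part of these cells in the small heat shock protein values was not tested. In RNA of whole tissue, fewer cells of a type and less RNA per cell cannot be told apart.

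Among the HSP70 family, which folds clients in cycles of ATP binding, Hspa2, best known from the testis, had 12098, 13562 and 10396 in high gainers and 9052, 8241 and 7887 in low gainers. Its log2 ratio was 0.51 (SE 0.12, adjusted p = 0.0314), with the pools apart. Hspa12b, a distant HSP70 relative of endothelial cells, had 59994, 53993 and 47994 in high gainers and 39245, 44845 and 43076 in low gainers, a log2 ratio of 0.35 (SE 0.12, adjusted p = 0.0872). The 7 tested endothelial markers all had ratios above 0, with a median log2 ratio of 0.31 and none past the threshold. Their sum was 415536 to 480016 in high gainers and 365656 to 394083 in low gainers, Vwf lacked values on some arrays, and their part in the Hspa12b value was not tested. Hsph1, the HSP110 that recharges HSP70 with ATP, had 17288, 15396 and 16827 in high gainers and 16974, 17270 and 16476 in low gainers, and the pools overlapped (log2 ratio -0.04, SE 0.09, adjusted p = 0.834). Hspa4 was the next lowest at 0.07. Hspa1a, Hspa1b, Hspa8, Hsp90aa1, Hsp90ab1, Hspb1 and the master regulator Hsf1 had no probe with a single symbol and were not analysed here, so the classical heat shock response was seen through few genes. Of the heat shock factors, Hsf3 had 5168, 6320 and 6566 in high gainers and 4615, 4063 and 4456 in low gainers, with a log2 ratio of 0.45 (SE 0.12, adjusted p = 0.0441) from a dim probe. Hsfy2, also dim, had a log2 ratio of -0.06, and Hsf2 and Hsf4 lacked values on some arrays.

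J-domain proteins hand clients to HSP70. Dnajb13, known from the axoneme of sperm, had 5440, 6111 and 5763 in high gainers and 3567, 3895 and 4096 in low gainers. Its adjusted p of 0.0085 passed, but its ratio of 1.499 stopped just short of 1.5-fold, and the probe is dim. Dnajb4, a cytosolic partner of HSP70, had 13319, 14271 and 10595 in high gainers and 8913, 10656 and 8554 in low gainers, which overlapped by 1 array (log2 ratio 0.44, SE 0.15, adjusted p = 0.0860). The general heat shock cofactor Dnajb1 had a log2 ratio of 0.13 (SE 0.09), which turned negative with the adipocyte centering. Dnajc7, which joins HSP70 to HSP90, had 220606, 217308 and 188798 in high gainers and 305494, 251541 and 252069 in low gainers, the lowest ratio of this role (log2 -0.37, SE 0.12, adjusted p = 0.0821). The next lowest was Dnaja2, at -0.15 with the pools apart.

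Dnajc5, the cysteine string protein of secretory vesicles, gave 2 answers. Its brighter probe, which stands for the gene here, had 48539, 41224 and 46542 in high gainers and 46252, 42194 and 47037 in low gainers, a log2 ratio of 0.01 (adjusted p = 0.973). Its other probe had 8507, 7852 and 7957 in high gainers and 17601, 14427 and 13565 in low gainers, a log2 ratio of -0.90 (SE 0.12, adjusted p = 0.0029, 1.86-fold lower). That second result, singled out after its value was seen, was past the threshold and lost it without any one of high-gainer arrays 1, 2 or 3 or low-gainer array 2 (adjusted p = 0.0143, 0.0151, 0.0118 and 0.0109). The other 3 genes with several probes, Ahsa1, Hspd1 and Sec61g, had log2 ratios of one sign over their probes.

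**Figure D3:**
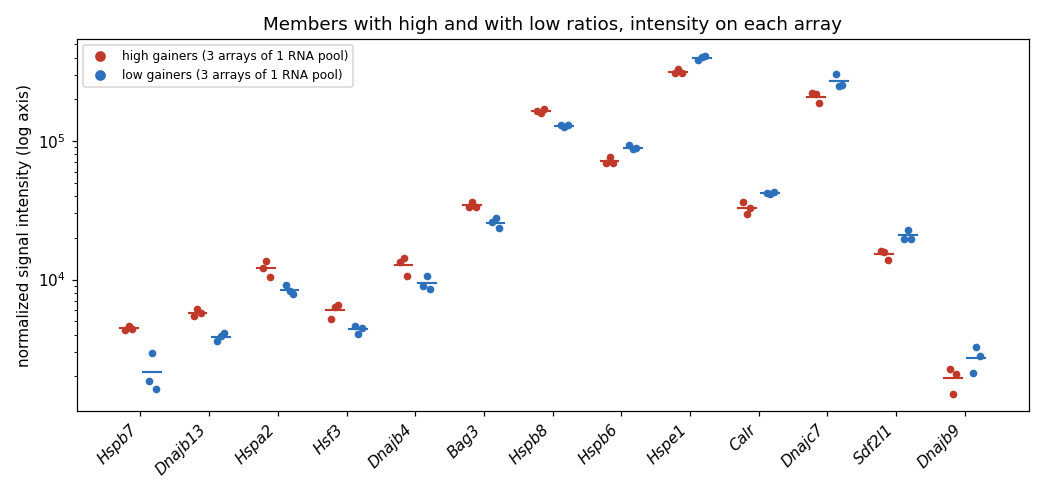
Normalized signal intensity on a log axis is plotted for each array, with high gainers in red left of low gainers in blue and a stroke at the mean of 3 arrays, for 7 genes with ratios above 1 (Hspb7 to Hspb8) and 6 with ratios below 1 (Hspb6 to Dnajb9). The colors are fully apart for each of the 13 genes except Dnajb4 and Dnajb9. These genes were picked for their high or low ratios, and of all probes 20.3% were apart on the higher and 16.3% on the lower side.

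Cochaperones load, release and guide HSP70 and HSP90. After Bag3, the highest cochaperone was Bag5 (log2 ratio 0.24), and the lowest were Hspbap1, a binding partner of small heat shock proteins (-0.29, adjusted p = 0.0833), and Stip1, the HSP70 to HSP90 adaptor (-0.17). Stip1 had 74958, 84247 and 82077 in high gainers and 92912, 89340 and 88698 in low gainers, which did not overlap, though its adjusted p was 0.271. Ahsa1, the activator of HSP90, had a log2 ratio of -0.06 (SE 0.09). The subunits of the CCT chaperonin, the cytosolic ring that folds actin and tubulin, ran from -0.13 (Cct4) and -0.06 (Cct2) to 0.07 (Cct8) and 0.10 (Cct6a), with the first subunit Tcp1 at -0.01, and no subunit had its pools apart.

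Mitochondrial chaperones fold proteins after import. Hspe1 had 310054, 330469 and 312438 in high gainers and 382929, 403551 and 412640 in low gainers, a log2 ratio of -0.33 (SE 0.09, 1.26-fold lower, adjusted p = 0.0448). Its divergent neighbor Hspd1 had 157799, 182712 and 147009 in high gainers and 172466, 180367 and 171321 in low gainers, which overlapped (log2 ratio -0.11, SE 0.11, adjusted p = 0.548). The 4 genes with the heat shock element had log2 ratios below 0 with a median of -0.08. The mitochondrial HSP70 Hspa9 lay at 0.03 and the J-domain gene Dnajc28 at 0.21 from a dim probe. Brown and beige adipocyte markers, from a mitochondria-rich cell, had a median log2 ratio of -0.59 over 6 tested genes. Of these 1 was past the threshold, Ucp1, with means of 7527 in high gainers and 51792 in low gainers (6.84-fold lower). The sums were 878269 to 922308 in high gainers and 1141940 to 1167510 in low gainers. Most of each sum came from Cox8b, with means of 817502 in high gainers and 995590 in low gainers (log2 ratio -0.28, adjusted p = 0.0637). Cidea, Elovl3 and Zic1 lacked values on some arrays, and the part of these cells here was not tested.

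In the ER, the chaperones spread to both sides. Hspa5, the HSP70 of the ER and the usual reporter of ER stress, had 313007, 399281 and 280840 in high gainers and 344098, 285753 and 320553 in low gainers. The pools overlapped, with a log2 ratio of 0.05 (SE 0.15, adjusted p = 0.856, 95% interval -0.30 to 0.40). Hsp90b1 had 97255, 90079 and 101936 in high gainers and 85355, 103195 and 92789 in low gainers, a log2 ratio of 0.04 (SE 0.11, adjusted p = 0.834). Neither of these 2 central chaperones was apart between the pools, and both ratios turned negative with the adipocyte centering.

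Sdf2l1, which keeps misfolded proteins soluble together with Hspa5, had 15954, 15887 and 13723 in high gainers and 19752, 22959 and 19757 in low gainers. Its log2 ratio was -0.46 (SE 0.11, 1.37-fold lower, adjusted p = 0.0329). The lectin chaperones, which hold glycoproteins until they are folded, lay on the same side. Calr had 36460, 29859 and 32666 in high gainers and 41953, 41738 and 42898 in low gainers (log2 ratio -0.36, SE 0.10, adjusted p = 0.0555). Canx had 292238, 320553 and 294638 in high gainers and 364670, 336524 and 356806 in low gainers (log2 ratio -0.22, SE 0.09, adjusted p = 0.153). The arrays of all 3 genes were apart, with none past the threshold. Of the 15 tested ER chaperones, 4 were apart on the lower side and 3 on the higher side. Over all probes the shares were 16.3% and 20.3%. Creld2, an ER stress target that acts on disulfides, had 49928, 49579 and 49343 in high gainers and 60578, 55972 and 55784 in low gainers (log2 ratio -0.21, SE 0.09, adjusted p = 0.155). Dnajb9, an Hspa5 cofactor induced through Xbp1, had the lowest ratio of the 84 genes, with 2257, 1478 and 2086 in high gainers and 2113, 3260 and 2813 in low gainers (log2 -0.49, SE 0.21, adjusted p = 0.161). Its probe is dim and its arrays overlapped.

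On the upper side of the ER chaperones were Dnajc18 (log2 ratio 0.35, dim), Hspa13 (0.31), Creld1 (0.24) and Dnajc3, the co-chaperone that also restrains Eif2ak3. Dnajc3 had 67816, 66728 and 61224 in high gainers and 57903, 50034 and 61182 in low gainers, narrowly apart (log2 ratio 0.21, SE 0.11, adjusted p = 0.238). Dnajb11 lay at -0.06. Hyou1, the HSP110 of the ER, had values on 2 high-gainer arrays (2091 and 1343) and 1 low-gainer array (924) and was not tested. Among the isomerases, P4hb, also a subunit of collagen prolyl hydroxylase, had 575465, 537567 and 606694 in high gainers and 469806, 495598 and 523289 in low gainers (log2 ratio 0.21, SE 0.10, adjusted p = 0.198). Pdia5 lay at 0.12, Pdia6 at -0.01 and Pdia4 at -0.15, all with overlapping arrays, and Pdia3 had no probe with a single symbol.

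**Figure D4:**
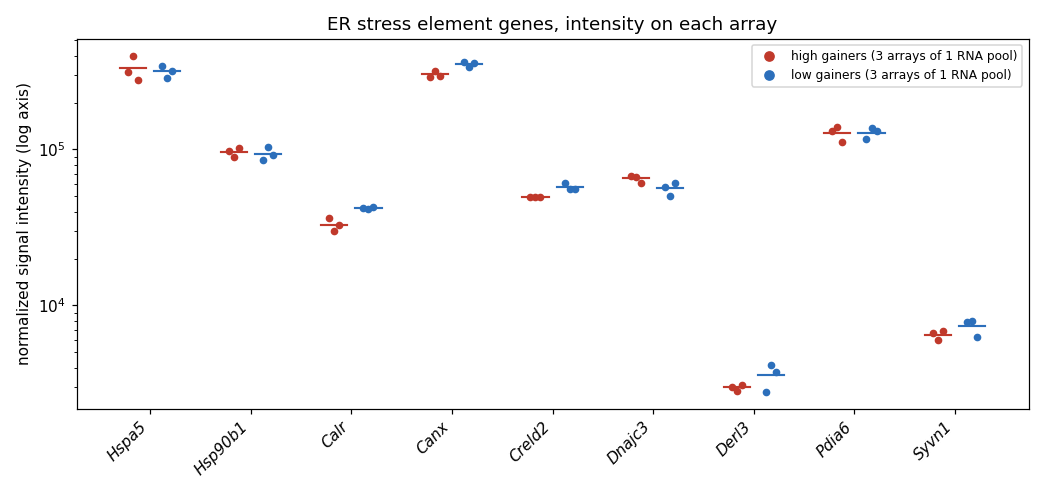
Normalized signal intensity on a log axis is plotted for each array, high gainers in red left of low gainers in blue with a stroke at the mean of 3 arrays, for the 9 genes whose promoters hold the ER stress element. Calr, Canx and Creld2 sit lower in high gainers on every array, Dnajc3 higher, and the other 5 genes overlap. Of all probes, 16.3% were apart on the lower side and 20.3% on the higher side.

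The 9 genes with the printed ER stress elements lay on both sides of 0. The log2 ratio was above 0 for 3 (Dnajc3, Hspa5, Hsp90b1) and below 0 for 6 (Calr, Canx, Creld2, Derl3, Syvn1, Pdia6), with a median of -0.18. That median is the value of Syvn1, and the probes of Syvn1 and Derl3 are dim. Hspa5, Hsp90b1 and Pdia6 lay at 0.05, 0.04 and -0.01. Hsp90b1, with 2 elements on different strands, lay near 0. With the element on the opposite strand, Calr, Creld2 and Derl3 lay below 0. With the element on the strand of the gene, Canx, Syvn1 and Pdia6 lay below 0 and Dnajc3 and Hspa5 above it.

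None of the 4 tested sensors and transcription factors of the UPR passed the threshold. Eif2ak3 had 37737, 37122 and 40876 in high gainers and 38494, 37574 and 38545 in low gainers (log2 ratio 0.01, SE 0.09, adjusted p = 0.942). Atf4 had 153114, 154511 and 145420 in high gainers and 156370, 172935 and 168246 in low gainers (log2 ratio -0.13, SE 0.09, adjusted p = 0.374), apart by a small gap. Ddit3, its death-promoting target, had 43861, 41707 and 50236 in high gainers and 37027, 43265 and 39653 in low gainers (log2 ratio 0.18, SE 0.11, adjusted p = 0.339). So the mRNA of the factor and that of its target lay on opposite sides of 0 and neither passed. Atf4 protein, which Eif2ak3 raises through translation, was not measured. Xbp1 had 342144, 392628 and 295152 in high gainers and 390987, 338286 and 379575 in low gainers (log2 ratio -0.11, SE 0.13, adjusted p = 0.607). The arrays give no measure of its splicing, or of the cleavage of Atf6, which had no probe with a single symbol. Ern1 had values on 2 high-gainer arrays (1131 and 2254) and 1 low-gainer array (1009).

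ER-associated degradation draws misfolded proteins back to the cytosol. Sel1l, the adaptor of the Syvn1 ubiquitin ligase, had 5016, 5450 and 5751 in high gainers and 3713, 5741 and 3952 in low gainers (log2 ratio 0.30, SE 0.17, adjusted p = 0.290, dim), with low-gainer array 2 among the high-gainer values. Syvn1 itself had 6641, 6018 and 6832 in high gainers and 7818, 7992 and 6300 in low gainers (log2 ratio -0.18, SE 0.12, adjusted p = 0.386, dim), and its arrays overlapped too. Herpud2 (0.20), Edem1 (0.09), Herpud1 (-0.09) and Derl3 (-0.24, dim) filled the range between and below them, and Derl1 was blank on all arrays. The Sec61 channel, through which secretory proteins enter the ER, ran from -0.12 (Sec61a1) and -0.09 (Sec61g) to 0.06 (Sec61a2 and Sec61b).

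Antibody-secreting plasma cells depend on Xbp1 and are rich in ER chaperones, and lymphoid markers differed widely between these pools. The summed intensity of 6 plasma cell markers was 52451 to 55576 in high gainers and 92420 to 97529 in low gainers, with 4 of the 6 below 0, of which Mzb1 and Pou2af1 were past the threshold, and with Prdm1 and Tnfrsf13b without values on some arrays. Mzb1 had means of 6337 in high gainers and 22572 in low gainers, and Pou2af1 of 8976 and 25527. These 2 genes made up most of the difference in the sum. The other genes below 0 were Irf4, at a log2 ratio of -0.59 (adjusted p = 0.0202), and Jchain, at -0.31 (adjusted p = 0.127). Tnfrsf17 and Sdc1 were above 0, at log2 ratios of 0.38 (adjusted p = 0.0920, arrays apart) and 0.16. All 7 tested B lymphocyte markers were lower in high gainers at the threshold, with sums of 132499 to 140813 in high gainers and 442761 to 447759 in low gainers, as were 5 of 7 T lymphocyte markers, with sums of 109836 to 131883 in high gainers and 316950 to 374400 in low gainers. Adipocyte markers had a median log2 ratio of 0.16 over 13 genes, with Lep past the threshold on the higher side and sums of 7813530 to 8309390 in high gainers and 7418830 to 7786690 in low gainers. Of 11 stromal cell markers 9 were above 0, with a median log2 ratio of 0.39. None passed the threshold on the higher side and 1, Thy1, passed it on the lower. Of 7 tested glandular epithelium markers 6 were below 0, 3 of them past the threshold, with a median of -0.95. Epcam, Krt19, Krt5 and Cldn7 lacked values on some arrays. The part of any of these cells in the ER chaperone values was not tested.

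Of the 20 genes not tested, 7 were blank on all 6 arrays and 13 had values on some arrays. The blank genes were Cct8l1, Derl1, Dnajb7, Dnajc5g, Dnajc6, Hspa1l and Hspb3. Dnajb3 had 1757, 1489 and 1612 in high gainers and a single value, 2222, in low gainers. The remaining genes with values on some arrays were Cct6b, Dnajb5, Dnajb8, Dnajc11, Dnajc5b, Dnajc9 and Hspa12a, next to Ern1, Hsf2, Hsf4, Hspb2 and Hyou1.

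Other genes of protein folding, which the rule did not take, gave 2 of 95 higher and 0 lower at the main threshold, against the 2.50% and 3.99% of all probes. Cryab, the small heat shock protein alpha B-crystallin, abundant in lens and muscle, had 303511, 312666 and 321376 in high gainers and 203223, 189673 and 192798 in low gainers. It was 1.60-fold higher (log2 0.68, SE 0.09, adjusted p = 0.00253). Creb3l2, an ER membrane transcription factor that is cut like Atf6 and raises secretory transport, had 20072, 19390 and 19331 in high gainers and 12898, 11580 and 11099 in low gainers. It was 1.66-fold higher (log2 0.73, SE 0.10, adjusted p = 0.00279). Both kept the threshold when low-gainer array 1 was left out and lost it without any other single array, with adjusted p up to 0.0160 for Cryab and 0.0196 for Creb3l2.

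By list, the median log2 ratio was 0.19 over 17 other ER stress signaling genes, 0.11 over 15 degradation genes, 0.07 over 21 ER folding genes, 0.05 over 16 cytosolic chaperones, -0.04 over 20 translocation and glycosylation genes and -0.16 over 6 mitochondrial genes. In the signaling list 5 genes had an unadjusted p under 0.05 on the higher side, Creb3l1, Creb3l2, Atf5, Chac1 and Sesn2, and 1 on the lower side, where 17.4% and 13.6% of all probes lay. Chac1, a glutathione-degrading target of Atf4, had 15835, 13743 and 14394 in high gainers and 12383, 9726 and 10131 in low gainers (log2 ratio 0.45, adjusted p = 0.0457), apart but within 1.5-fold. Serp1, a partner of the translocon, was the lowest of that list, with 110181, 109420 and 92439 in high gainers and 132198, 139242 and 134593 in low gainers (log2 ratio -0.38, adjusted p = 0.0460). In the ER folding list the extremes were the isomerase Fkbp7 (log2 ratio 0.43, adjusted p = 0.0213) and the oxidase Ero1b (-0.63, adjusted p = 0.0107, dim). In the degradation list they were Erlin2 (0.35, dim) and Aup1 (-0.33), in the translocation list Sec62 (0.32) and Srprb (-0.26), and in the mitochondrial list Lonp1 (0.01) and Hscb (-0.27), none past the threshold. Ptges3, the HSP90 cochaperone p23, was lowest of the cytosolic list at -0.23.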

How the data were processed

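Inguinal fat RNA of 8 high gainers and of 8 low gainers was pooled, and 1 μg of each pool was labeled and hybridized in triplicate. The deposited values are linear signal intensities that the authors had quantile normalized, with blanks where an array has no value. Of 33012 probes, 18018 to 20605 had a value on an array, and precision is limited by the number of arrays. The 15821 probes with values on all 6 arrays were log2 transformed and compared by lmFit and eBayes of limma 3.58.1, run in R 4.3.3 without further normalization. On simulated arrays of 15821 probes the test called 0 of 50 probes changed by 1.5-fold, 18 of 50 by 2-fold, 40 of 50 by 3-fold and 46 of 50 by 5-fold, and 1 of 15621 unchanged probes. Far fewer probes were changed there than the 396 higher and 632 lower that were called in the data. The adjustment of p was therefore stricter in the simulation, and its shares are not those for the real arrays. Correlations between arrays were 0.988 to 0.994 within a pool and 0.972 to 0.980 across pools.

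A gene was represented by its brightest probe with a single symbol and values on all arrays. The genes named were those past the threshold, the 5 highest and 5 lowest ratios, a core list of UPR and heat shock genes and the 2 highest and 2 lowest of each role. The members, roles and lists were chosen with earlier results of these data known. Alternatives changed the normalization, centering, signal filter, offset, variance model, thresholds, probe summary, array block and arrays used. No source used here names the build behind the probes.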

Additional observations from a re-analysis of the deposited data

How the results depend on the processing

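With each gene taken by its brightest probe, or by the mean over its probes, no chaperone or UPR gene was past the lower threshold under any of the alternatives run. The second probe of Dnajc5, which is not counted here, was past it in the main fit (log2 ratio -0.90, adjusted p = 0.0029). On the higher side the count was 0, and it became 1 with an offset of the 10th percentile (Hspb7, adjusted p = 0.0056), with an intensity trend and robust estimation (Hspb7, adjusted p = 0.0077), with the adjusted p threshold at 0.05 (Hspb7) and without a fold threshold (Dnajb13). Leaving out each array gave 0 to 1, the 1 being Hspb7 without low-gainer array 2. The deviations of arrays of equal number correlated at r = 0.04, -0.11 and 0.27, above 0.1 for number 3 alone, so the numbers were not taken as pairs, and with the array number as a block 0 chaperone and UPR genes were higher and 0 lower. The median log2 ratio of 0.03 became -0.11 with adipocyte centering and 0.00077 without probes below the median signal, and it was 0.018 to 0.043 without single arrays. For the other folding genes, adipocyte centering gave 0 higher, 1 lower (Ero1b) and a median of -0.10, and leaving out single arrays gave 0 to 2 higher and medians of 0.00052 (without high-gainer array 2) to 0.066. With the block, Cryab and Creb3l2 had adjusted p of 0.0147 and 0.0119, outside the threshold. Of 57 named members, 20 changed sign under some alternative, 12 of them by adipocyte centering, with log2 ratios of at most 0.13 in size. The number of arrays limits the precision. In simulated data 18 of 50 probes changed by 2-fold were called, but with fewer changed probes than in the data, so that share does not carry over.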

Other observations

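Some ER genes varied more between repeat arrays of the low-gainer pool than between the pools. They were chosen after their values were seen. Sec61b had 61182, 58673 and 72770 in high gainers and 47655, 77479 and 62217 in low gainers. Sdf2, the relative of Sdf2l1, had 76224, 69094 and 80808 in high gainers and 55800, 91511 and 78737 in low gainers. Both were lowest on low-gainer array 1 and highest on low-gainer array 2. Pdia4 had 58045, 49816 and 54034 in high gainers and 47534, 71061 and 62933 in low gainers, in the same order of arrays. Among genes of the other lists, Fkbp2, an ER prolyl isomerase, had 101184, 103709 and 117883 in high gainers and 79522, 126104 and 97620 in low gainers, and Ssr2, a translocon-associated protein, had 198959, 176077 and 189333 in high gainers and 151915, 209177 and 156614 in low gainers. Over the 84 chaperone and UPR genes, high-gainer array 2 was the highest of its pool for 39 genes (46.4%), against 37.1% of all probes, and high-gainer array 3 the lowest for 38 (45.2%), against 40.5%. Low-gainer array 2 was the highest of its pool for 35 genes (41.7%), against 31.3% of all probes, and low-gainer array 1 the lowest for 35 (41.7%), against 35.0%.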
